A study of Mus musculus with 10 samples.

Results

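The genes described here are the activators of the mammalian circadian clock and the nuclear receptors and repressors that control them: Arntl, Clock, Npas2, Nr1d1, Nr1d2, Rora and Nfil3. They were taken by name (rows arntl, clock, npas2, nr1d1, nr1d2, rora and nfil3), and all 7 were found among the 14812 gene rows of the deposited single-cell tables. The samples were hepatocytes of C57BL/6 male mice aged 3 months, fed chow without restriction, anaesthetised with ketamine and xylazine. Hepatocytes, the main cells of the liver, were freed with collagenase and purified on Percoll, and their mRNA was counted as UMIs (distinct tagged molecules) with the 10x Chromium 3' kit. Zeitgeber time (ZT) counts hours of the light-dark cycle from lights on, and there were 3 libraries at ZT0 (A, B and C), 2 at ZT6, 3 at ZT12 and 2 at ZT18. Every group shared the strain, sex, age, feeding and isolation. No genotype or treatment differed between the groups. The number of mice behind a library is not given in the sources used here, so p-values measure the spread between libraries, which may be partly technical.

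In the core clock, the proteins ARNTL (also called BMAL1) and CLOCK, or NPAS2 in place of CLOCK, bind E-box DNA and switch on their own repressors. Among their targets are Nr1d1 and Nr1d2, which encode the REV-ERB receptors. REV-ERBs occupy short response elements (ROREs) and repress the genes beside them, Arntl included, while ROR receptors such as the one encoded by Rora compete for those elements and activate. NFIL3 (E4BP4) represses D-box genes, the DNA elements that DBP, TEF and HLF activate. In liver this loop is known for timing lipid, bile acid and haem metabolism.

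Stretches around 2 motifs are shown because the REV-ERB and ROR members act through elements built on them. The Arntl and Nfil3 stretches hold TAGGTCA, a RORE core, and those of Nr1d2 and Clock hold AGGTCA alone, the half-site common to many nuclear receptors. Promoter windows of 300 bases, from 250 before to 50 after a gene's start, were available from RefSeq (GRCm38.p6) for all 7 genes in 10 windows. Capitals mark the motif, and each line runs 5′ to 3′ on the strand named.
Arntl, chr7:113207530-113207558, plus strand: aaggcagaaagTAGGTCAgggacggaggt
Nfil3, chr13:52981034-52981062, plus strand: atgtgtgttagTAGGTCAgttccgagcgc
Nr1d2, chr14:18239167-18239194, minus strand: attggaagaagAGGTCAggaccgctcgt
Clock, chr5:76303605-76303632, plus strand: tgtcatctgtcAGGTCAgaggccaaagc
The Arntl match lies on the gene's own strand in 1 of its 2 windows and begins 30 bases after that window's start site. The Nfil3 match is read on the strand opposite to the gene, and its base farthest upstream of the start lies at position -12. The Nr1d2 match is on the gene's strand and begins at -77. The Clock match is on the opposite strand in 1 of its 3 windows, with its base farthest upstream at -119. Neither motif was in the windows of Npas2, Nr1d1 and Rora or in the remaining windows of Arntl and Clock. TAGGTCA, searched on both strands, was in 2.61% of the 32851 windows of the table, and AGGTCA, which TAGGTCA contains, was in 16.3%. Counted by gene, these were in 2.97% and 18.1% of 27025 genes. The other RORE form searched, TGGGTCA, and the E-box CACGTG were in 3.98% and 7.15% of all windows, and neither was in a window of a member. The D-box forms TTATGTAA and TTACGTAA, in 0.938% and 0.119% of windows, were in none either. These are matches of letters in short windows and no measurement of binding.

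In GENCODE M21 (GRCm38) all 7 are protein-coding genes. Arntl lies on chromosome 7 (113207465 to 113314126, plus strand), Clock on chromosome 5 (76209868 to 76304792, minus strand) and Npas2 on chromosome 1 (39193731 to 39363236, plus strand). Nr1d1 lies on chromosome 11 (98767932 to 98775333, minus strand) and Nr1d2 on chromosome 14 (18204054 to 18239127, minus strand). Rora lies on chromosome 9 (68653786 to 69388246, plus strand) and Nfil3 on chromosome 13 (52967209 to 52981073, minus strand). Whether counting used strand is not given in the sources used here. Antisense genes share 33 exon bases with Arntl and 82 with Rora, and their reads could not be told apart without strand.

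Depth ranged from 1454623 UMIs (ZT12A, 710 cells) to 7144803 (ZT12B, 2469 cells), with 1588 to 2662 UMIs in the median cell and 18378 cells in all. Levels are given as CPM, the UMIs of a gene scaled to a library total of 1000000 UMIs. The median mitochondrial share of a cell's UMIs ran from 11.97% (ZT12C) to 24.7% (ZT12A). Hepatocyte markers summed to 42694 to 76823 CPM in every library, with the lowest sum also in ZT12A. Summed markers of endothelial cells (8 genes), macrophages (8), lymphocytes (9 of 10 present), neutrophils (4 of 5) and stellate cells (7) each stayed at or below 17.9 CPM. Those of cholangiocytes (6) reached 117.8 CPM. Of 5 erythroid markers only Alas2 had a row, at 67.37 to 106.9 CPM. The 4 haemoglobin genes stood apart in library ZT18B, at 293.2 CPM against 0.3376 to 8.802 in the other 9. Both ZT18 libraries carry 10x index number 4, which no other library has. At ZT18 the time and the index number cannot be told apart, so values without both ZT18 libraries are given where they change a call.

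Arntl encodes the activator that both CLOCK and NPAS2 need as partner. Its level was 19.0, 13.5 and 30.2 CPM in the ZT0 libraries, and 2.24 and 1.54 CPM at ZT6. It was 3.44, 1.12 and 1.004 CPM at ZT12, and 15.7 and 12.1 CPM at ZT18. Every ZT0 and ZT18 library lay above every ZT6 and ZT12 library, while ZT0 and ZT18 overlapped, as did ZT6 and ZT12. With so few libraries such separation is common: of all genes tested, libraries did not overlap between ZT0 and ZT12 in 18.1%, ZT6 and ZT12 in 30.9%, ZT0 and ZT18 in 32.3%, ZT0 and ZT6 in 32.8%, ZT12 and ZT18 in 40% and ZT6 and ZT18 in 62%. The fall from ZT0 (20.9 ± 8.51, SD, n = 3) to ZT12 (1.85 ± 1.37, n = 3) was -3.90 ± 0.43 (SE) on the log2 scale in edgeR's quasi-likelihood test (adjusted p = 1.7e-04 over 8908 genes). The rise from ZT6 to ZT18 was 2.89 ± 0.49 (edgeR adjusted p = 0.0068). With ZT6A or ZT6B left out that adjusted p was 0.101 or 0.0773. The 15 UMIs at each of ZT6 and ZT12 set the precision of the low side.

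Clock, the DNA-binding partner of ARNTL, moved over a much smaller range. It was measured at 41.2, 44.9 and 49.6 CPM at ZT0, and 32.5 and 27.8 CPM at ZT6. The ZT12 libraries had 31.6, 18.6 and 19.1 CPM, and those of ZT18 had 36.5 and 44.2 CPM. Library ZT12A lay within the ZT6 range, and the other ZT12 libraries were the lowest of all 10. ZT12 was below ZT0 by -1.15 ± 0.22 on the log2 scale (edgeR adjusted p = 0.010). Without ZT12B or ZT12C the adjusted p was 0.0534 or 0.0506.

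Npas2, which can replace CLOCK, had 160 of its 170 UMIs at ZT0. The ZT0 libraries held 41, 46 and 73 UMIs (7.16, 6.84 and 12.3 CPM), the ZT6 libraries 2 and 1, the ZT12 libraries none and the ZT18 libraries 4 and 3. At 2.92 CPM over the 10 libraries, Npas2 was below the minimum mean of 3 CPM and had no place in the main tests. By UMIs it was 21.8 times higher at ZT0 than at ZT6 (95% counting interval 7.32 to 107) and 8.57 times higher than at ZT18 (4.07 to 21.7). Against ZT12, with 0 UMIs, it was at least 30.7-fold higher, taking 3 UMIs over the 3 libraries as the floor, while the lower 95% counting limit of the ratio was 24.7. These intervals and floors cover counting error only. With a minimum of 10 UMIs over all libraries in place of the mean, Npas2 was tested and had a 24-h rhythm with a fitted peak at ZT23.3 (edgeR adjusted p = 1.1e-05). Under that minimum 4.23% of 11995 genes were rhythmic.

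Nr1d1 encodes REV-ERBα and had the widest range of the members tested. The ZT6 libraries held 39.6 and 24.7 CPM (195 and 64 UMIs), and the ZT18 libraries 0.314 and 0.269 CPM (1 UMI each). At ZT0 it was 0.698, 1.93 and 2.53 CPM, and at ZT12 1.37, 7.14 and 10.0 CPM. Both ZT6 libraries were above all others. Libraries of ZT0 and ZT12 overlapped, since ZT12A had 2 UMIs. From ZT6 to ZT18 the level changed by -6.59 ± 0.73 on the log2 scale (edgeR adjusted p = 2.2e-04), and the ratio of UMI rates was 119 (95% counting interval 32.6 to 986). ZT12 was higher than ZT0 by 1.80 ± 0.46 (adjusted p = 0.0515), and by 1.86 with libraries of the same letter taken as pairs (adjusted p = 0.0245 with that replicate block). Without ZT0C or ZT12A, and with no pairing, the adjusted p was 0.0479 or 0.0154. In the ZT0 and ZT12 libraries alone, with the same pairing, the adjusted p was 0.0192. Without both ZT18 libraries and with the index number as a block, the difference was 1.71 (adjusted p = 0.0136).

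The exons of Nr1d1 share 263 of 3077 bases with those of Thra on the other strand. Thra, a thyroid hormone receptor gene, had a ZT0 level of 8.55 ± 4.53 CPM (SD, n = 3), a ZT6 level of 9.42 ± 0.76 (n = 2), a ZT12 level of 5.27 ± 1.72 (n = 3) and a ZT18 level of 9.59 ± 0.22 (n = 2). Thra had no call for a rhythm (edgeR adjusted p = 0.577). Whether reads of Thra add to the Nr1d1 counts was not tested.

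Nr1d2 encodes REV-ERBβ. It was measured at 6.63, 7.88 and 6.42 CPM at ZT0, and 57.5 and 59.9 CPM at ZT6. At ZT12 it was 88.0, 69.1 and 75.8 CPM, and at ZT18 20.8 and 16.2 CPM. No libraries of different times overlapped, and the order of times was ZT0, ZT18, ZT6 and ZT12 from low to high. ZT12 exceeded ZT0 by 3.32 ± 0.21 (edgeR adjusted p = 1.1e-06) and ZT18 was below ZT6 by -1.60 ± 0.24 (adjusted p = 0.0029, and 0.0793 without ZT18B). The neighbours ZT6 and ZT12 in that order were not separated by the test, with a difference of 0.34 and a 95% interval of -0.11 to 0.79 (adjusted p = 0.521). Nr1d1 at ZT12 was, in contrast, -2.33 ± 0.40 below its own ZT6 level (adjusted p = 0.0265). Leaving out ZT6A, ZT6B, ZT12B or ZT12C raised that adjusted p to 0.395, 0.0795, 0.0527 or 0.0521. The difference between the 2 receptors was not tested.

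**Figure D1:**
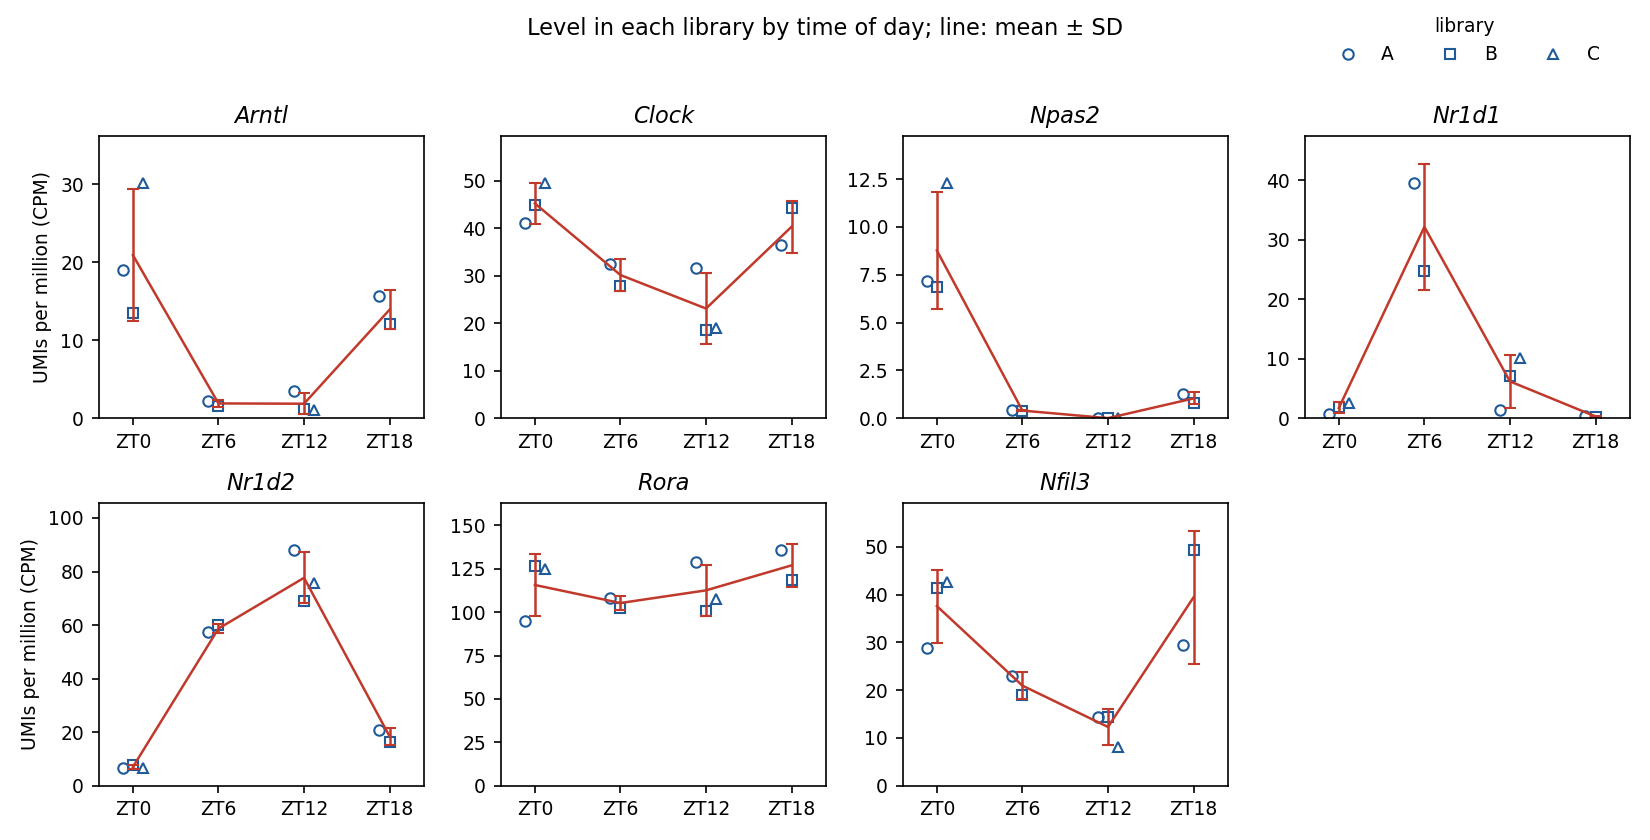
Level of each member (y axis, CPM, linear from 0) at the 4 times (x axis). Symbols are libraries A, B and C, and the line joins the means ± SD. Arntl and Npas2 are lowest at ZT6 and ZT12, Nr1d1 is highest at ZT6, Nr1d2 is highest at ZT12 with 69.1 to 88.0 CPM, and Rora varies between 95.1 and 136 CPM over all libraries.

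Rora encodes the activating receptor RORα. Rora was 95.1, 127 and 125 CPM in the ZT0 libraries and 108 and 102 CPM in those of ZT6. It was 129, 101 and 108 CPM in the ZT12 libraries and 136 and 118 CPM in those of ZT18. The times overlapped except that both ZT18 libraries lay above both ZT6 libraries. No contrast of 2 times passed the test for Rora, and the interval for ZT12 against ZT0 was -0.57 to 0.21 and that for ZT18 against ZT6 was -0.13 to 0.82 (log2). Changes of Rora within those bounds were not detectable with these libraries.

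Nfil3, the D-box repressor, was 28.8, 41.5 and 42.5 CPM at ZT0 and 23.0 and 18.9 CPM at ZT6. It was 14.4, 14.4 and 8.03 CPM at ZT12 and 29.6 and 49.3 CPM at ZT18. All ZT12 libraries were below all others, and ZT0 and ZT18 overlapped. ZT12 was below ZT0 by -1.70 ± 0.28 (edgeR adjusted p = 0.0032). ZT18 exceeded ZT12 by 1.77 ± 0.30 (adjusted p = 0.0041, and 0.121 without ZT18B).

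Over the 4 times, 5 of the 6 members tested had a 24-h rhythm by edgeR's test (adjusted p under 0.05), against 5.14% of the 8908 genes. A fit of 1 mean per time called the same number, 5 of 6, against 6.58% of genes. Nr1d1 and Arntl pass the minimum mean largely through the times at which they are high. Peaks fell into 2 parts of the day. Rhythms peaking from ZT18 to ZT24 made up 2.4% of all genes tested, and those peaking from ZT6 to ZT12 made up 1.4%. In the late night lay Arntl at ZT21.6, Nfil3 at ZT21.9 and Clock at ZT22.4. The REV-ERB genes peaked by day, with Nr1d1 at ZT7.03 and Nr1d2 at ZT10.2. When single libraries were left out, the Nr1d1 peak stayed between ZT6.88 and ZT7.23 and that of Nr1d2 between ZT9.92 and ZT10.5.

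The amplitudes, as log2 from mean to peak, ordered the called members from Nr1d1 (3.37, adjusted p = 5.5e-05) through Arntl (2.43, adjusted p = 9.1e-05), Nr1d2 (1.83, adjusted p = 5.5e-05) and Nfil3 (0.96, adjusted p = 0.011) to Clock (0.62, adjusted p = 0.021). For Rora the amplitude was 0.19 (adjusted p = 0.492) and it was called in none of the fits with a library left out. Clock lost its call without ZT12B (adjusted p = 0.0692). The median amplitude of all genes tested was 0.25. Sampling every 6 h cannot tell a smooth wave from a shorter pulse, and Npas2 and Nr1d1 were each high at 1 time.

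**Figure D2:**
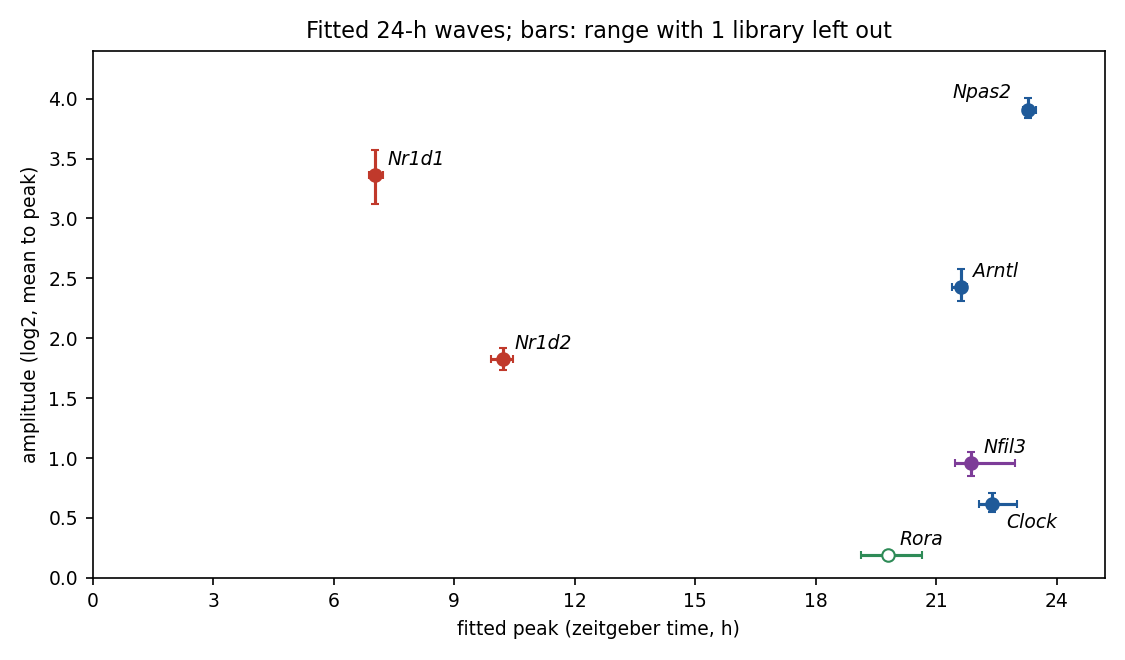
Fitted peak time (x axis, zeitgeber hours) and amplitude (y axis, log2 from mean to peak) of each member. Bars span the values with 1 library left out, and filled points passed the test. The Npas2 point is from the fit with the lower minimum of UMIs. Its bars cover 7 fits at the minimum mean of 3 CPM, and in none of them was a ZT0 library left out. Nr1d1 and Nr1d2 lie at ZT7.03 and ZT10.2, the others between ZT19.8 and ZT23.3.

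Between neighbouring times, 10 of 24 member contrasts passed the test. From ZT0 to ZT6, Arntl fell (-3.47 ± 0.45, adjusted p = 0.0018, and 0.0654 or 0.0531 without ZT6A or ZT6B) while Nr1d1 rose (4.12 ± 0.43, adjusted p = 5.4e-04) and Nr1d2 rose (2.98 ± 0.22, adjusted p = 1.2e-05). Of all genes 0.718% were called in that step, 0.348% higher and 0.37% lower at ZT6. From ZT6 to ZT12 the 1 call was the fall of Nr1d1, against 0.595% of all genes (0.303% lower at ZT12). From ZT12 to ZT18, 5 members were called, against 4.85% of genes (2.99% higher and 1.86% lower at ZT18): Arntl (3.31 ± 0.47), Clock (0.98 ± 0.25) and Nfil3 rose, and Nr1d1 (-4.26 ± 0.85) and Nr1d2 (-1.94 ± 0.23) fell. In that step the Clock call (adjusted p = 0.0386) was lost when any of ZT6A, ZT6B, ZT12B, ZT12C, ZT18A or ZT18B was left out (adjusted p from 0.0654 to 0.363). The Nr1d1 call there was lost without ZT18A (adjusted p = 0.105) or ZT18B (adjusted p = 0.155). From ZT18 to ZT0 the call was a further fall of Nr1d2 by -1.38 ± 0.23 (adjusted p = 0.0077, and 0.183 without ZT18A), against 1.11% of genes (0.932% lower at ZT0). Contrasts that share a time share its libraries. Across the opposite times, ZT12 against ZT0 without pairing called 4 of 6 members, Nr1d2 higher and Arntl, Clock and Nfil3 lower at ZT12. Of all genes 3.44% were called in that fit, 1.74% higher and 1.7% lower. With the replicate block Nr1d1 was called as well, higher at ZT12. ZT18 against ZT6 called Arntl higher and Nr1d1 and Nr1d2 lower at ZT18, against 3.79% of genes (2.35% higher and 1.45% lower).

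Within a 10x index number the directions from ZT0 to ZT12 could be read in 3 pairs of libraries. On the log2(CPM + 1) scale Arntl differed by -2.17, -2.78 and -3.96, Nfil3 by -0.95, -1.46 and -2.27, and Nr1d2 by 3.54, 2.98 and 3.37. Clock differed by -0.37, -1.23 and -1.33, so the ZT0A and ZT12A pair showed the smallest fall. Nr1d1 differed by 0.48, 1.47 and 1.64. ZT6 shared index number 7 with ZT0B and ZT12B. There Nr1d1 at ZT6A and ZT6B was above ZT0B by 3.79 and 3.13.

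The share of cells with at least 1 UMI was compared after every cell had been thinned to 1000 UMIs, which left out no cell. For Arntl it was 2.05% ± 0.89 (SD, n = 3) of ZT0 cells, 0.207% ± 0.0013 (n = 2) of ZT6 cells, 0.103% ± 0.033 (n = 3) of ZT12 cells and 1.41% ± 0.14 (n = 2) of ZT18 cells. Nr1d1 was found in 0.0998% ± 0.047, 3.32% ± 1.15, 0.637% ± 0.43 and 0.0280% ± 0.040 in the same order, and Nr1d2 in 0.739% ± 0.26, 6.02% ± 0.66, 7.70% ± 1.09 and 1.85% ± 0.082. The order of the times in these shares was that of the CPM for the REV-ERB genes. Rora had a UMI in 9.91% to 11.7% of cells at every time. Npas2 had a UMI in 0.798% of ZT0 cells, 0.0554% of ZT6 cells, none of the ZT12 cells and 0.117% of ZT18 cells. Without thinning, the mean shares at the highest time were 5.89% for Arntl, 11.7% for Clock, 6.05% for Nr1d1, 15.3% for Nr1d2 and 26.1% for Rora.

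No cell type that should lack these genes was present for comparison. The highest thinned share of a single marker in any library was 0.179% for neutrophils, 0.24% for lymphocytes, 0.481% for macrophages, 0.836% for stellate cells and 0.895% for endothelial cells. Npas2 at every time, Arntl at ZT6 and ZT12, Nr1d1 at ZT0, ZT12 and ZT18, and Nr1d2 at ZT0 had mean shares below the endothelial value. That value is the highest of a single marker in a single library (ZT18B) and is no measured background of the members. Single cells at those times are therefore not sorted into those that express the gene and those that do not. In library ZT0C the shares of Npas2 (1.39%) and Nr1d2 (1.003%) were above it. Before thinning, Npas2 had a UMI in 156 of 6736 ZT0 cells and in 0 of 4318 ZT12 cells. The cholangiocyte and erythroid lists each reached more than the endothelial value, 5.24% and 9.75%. Both values were above every mean share of Arntl, Clock, Npas2, Nr1d1 and Nfil3. The erythroid value was also above every mean share of Nr1d2, which reached 7.70%. The exact permutation test of the library shares over 25200 assignments to the times gave unadjusted p = 0.0017 for Nr1d2, 0.0024 for Nr1d1, 0.0081 for Arntl and 0.0087 for Clock. For Nfil3 it gave p = 0.0513 and for Rora p = 0.521 (permutation test). None of the 6 members tested passed after adjustment over all 8908 genes (adjusted p from 0.219 to 0.727), and neither did any gene (0% called). Of all genes, 1340 had an unadjusted p under 0.05. The smallest p the permutations can give is 1.6e-04, so that adjustment leaves little room at this number of libraries.

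**Figure D3:**
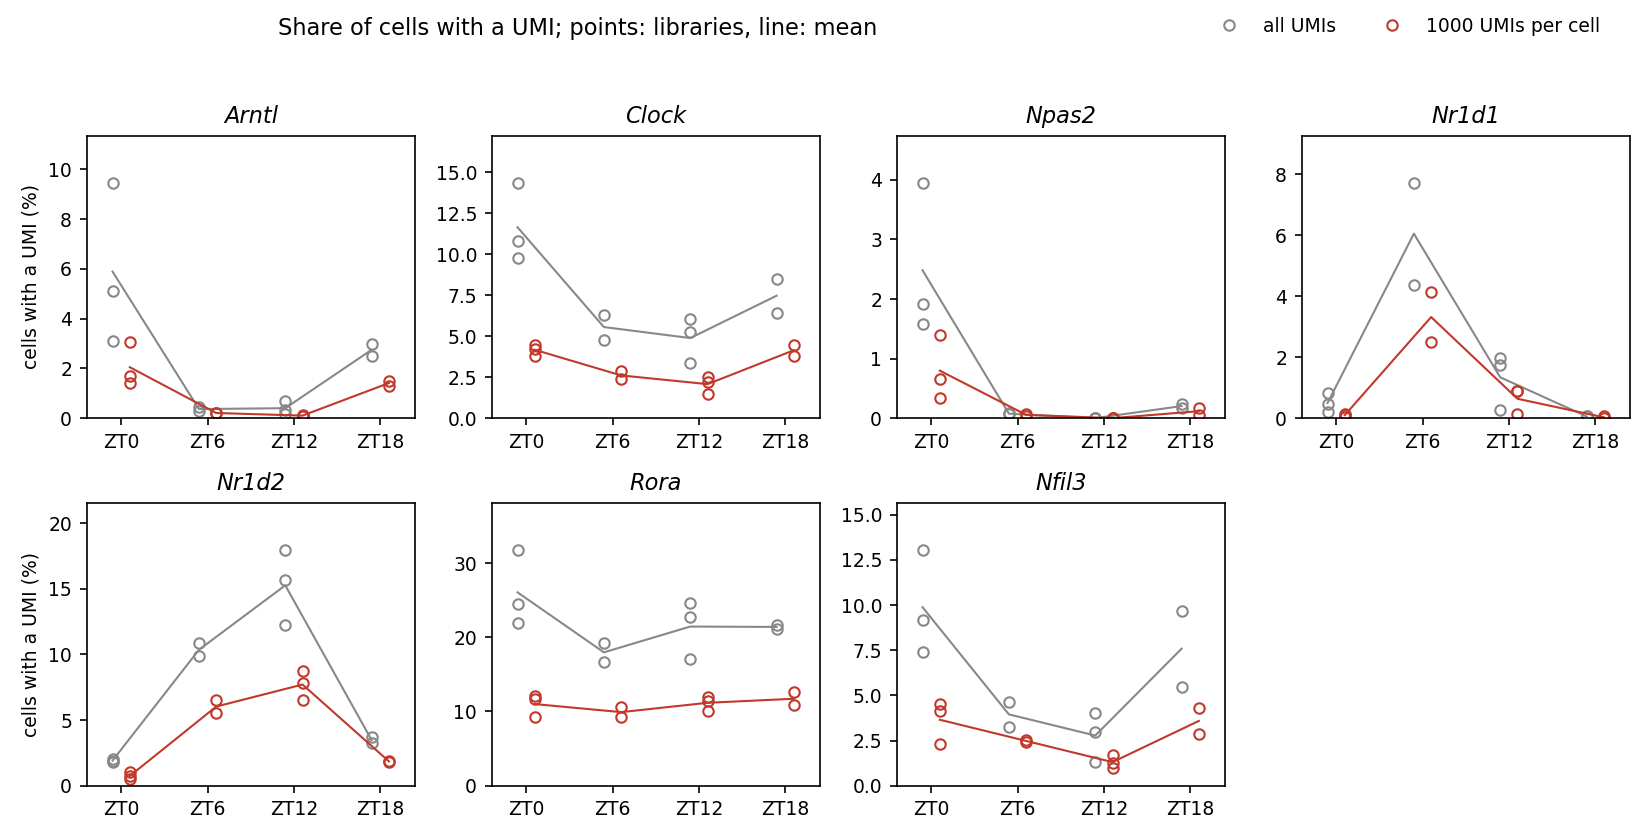
Share of cells with a UMI of each member (y axis, percent, linear from 0) at the 4 times (x axis). Grey points are libraries with all UMIs, red points are libraries thinned to 1000 UMIs per cell, and lines join the means. Thinned shares of Nr1d2 run from 0.739% at ZT0 to 7.70% at ZT12, and those of Rora stay between means of 9.91% and 11.7%.

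Within a time, cells with a UMI mostly held 1. Over all libraries the mean was 1.02 UMIs (Npas2) to 1.19 (Rora) per cell with any, and the most in a cell was 5, for Rora. An expected number of cells with a UMI was found by letting the UMIs of a library fall on its cells at random in proportion to their depth. Summed over all libraries, the observed number was 0.989 to 1.01 times the expected. In single libraries the ratio ran from 0.945 (Nfil3) to 1.025 (Clock). At this depth cells cannot be sorted into those with and those without a transcript. Arntl and Nr1d1 were found together in none of 18378 thinned cells, where 0.459 would be expected from their shares in each library, so their pairing in single cells was not detectable.

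Position in the lobule was read from landmark genes, none of them a member. Blood flows from the portal vein (periportal cells) to the central vein (pericentral cells). The cells of each library were ordered by the landmark score and split into 3 equal parts, of which the outer 2 were compared. Parts are thus ranks within a library and need not be the same lobule position in every library or time. The median mitochondrial share was higher in the periportal than in the pericentral part of every library. The pericentral landmark Cyp2e1, summed over all cells, ranged from 733 to 3125 CPM among the ZT0 libraries. Rora differed between these zones. Its pericentral level was 101 ± 17.4 CPM and its periportal level 133 ± 20.1 CPM (SD, n = 10 libraries). The periportal zone was higher in 10 of 10 libraries, by 0.0089 (ZT12B) to 0.72 (ZT12C) on the log2(CPM + 1) scale. The fitted difference was 0.49 ± 0.07 on the log2 scale with the library as a block (edgeR adjusted p = 2.3e-06), a 1.41-fold higher periportal level. Zone was called for 1 of 6 members, against 24.9% of 8925 genes (12.2% higher periportally and 12.7% higher pericentrally).

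The mean of Rora was higher on the portal side at each time. At ZT0 it was 99.9 ± 21.6 CPM pericentrally and 138 ± 22.0 periportally (n = 3), and at ZT6 92.9 ± 1.496 and 115 ± 12.04 (n = 2). At ZT12 it was 103 ± 23.3 and 130 ± 25.7 (n = 3), and at ZT18 110 ± 19.6 and 148 ± 5.95 (n = 2). With the outer 2 of 5 equal parts the difference was 0.61, and in cells with at least 2000 UMIs it was 0.49. Scaling to library size alone in place of TMM (edgeR's trimmed mean scaling) moved the median of all genes by 0.10 toward the pericentral side, and Rora then differed by 0.39 (adjusted p = 9.9e-05). Over 8 equal parts of the cell order, ZT0 means ran from 94.2 CPM in the most pericentral part to 148 CPM in the most periportal part, and ZT18 means from 103 to 156 CPM. In the ZT6 libraries the highest part was the seventh, at 129 CPM, and the eighth had 109.5 CPM. At ZT12 the means of parts 1 to 6 lay between 92.4 and 108.6 CPM, and parts 7 and 8 had 120 and 153 CPM.

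**Figure D4:**
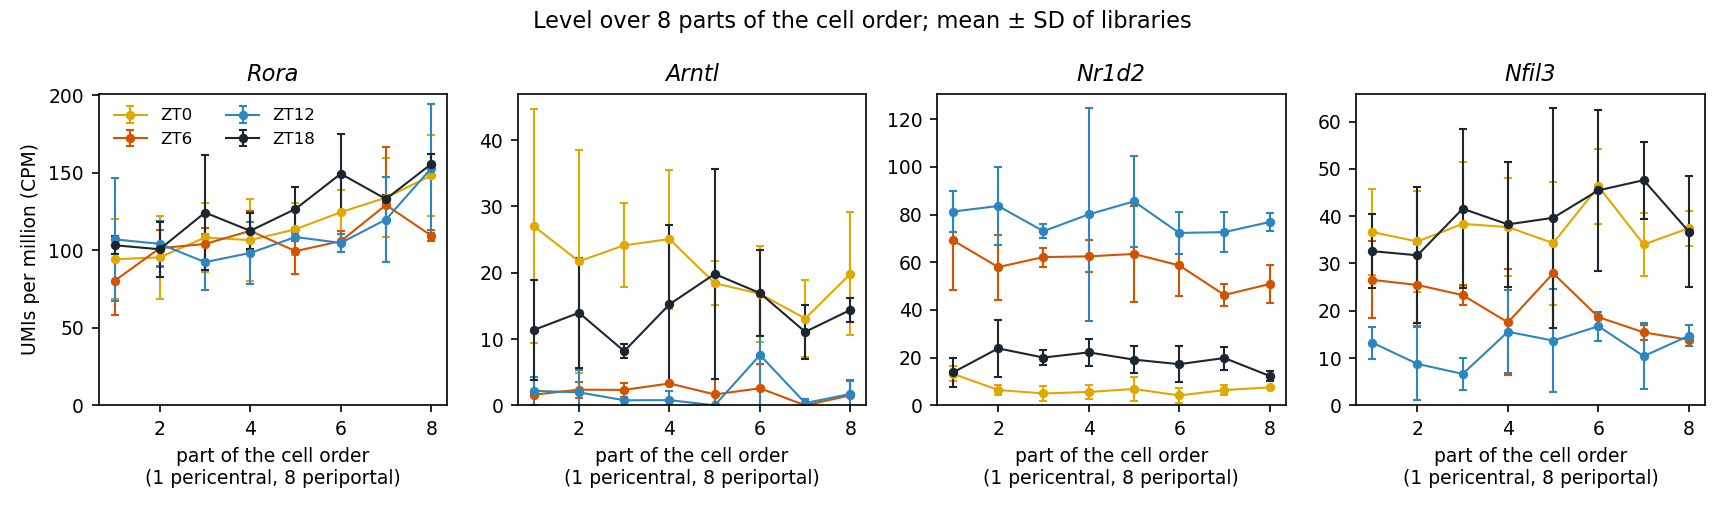
Level of Rora, Arntl, Nr1d2 and Nfil3 (y axes, CPM, linear from 0) at each time. The x axis is 8 equal parts of the cell order within each library (1 pericentral to 8 periportal). Points are means and bars SDs over the 2 or 3 libraries. Rora rises from 94.2 to 148 CPM at ZT0, while the Nr1d2 means of the 4 times keep the same order in all 8 parts.

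None of the other 5 members tested passed the zone test. Fitted differences, periportal minus pericentral, had 95% intervals of -0.62 to 0.12 for Arntl, -0.04 to 0.33 for Clock, -0.61 to 0.24 for Nr1d1, -0.31 to 0.09 for Nr1d2 and -0.09 to 0.39 for Nfil3 (log2). The interval of Rora was 0.34 to 0.64 and overlapped that of Nfil3. On the log2(CPM + 1) scale Nr1d2 was lower periportally in 9 of 10 libraries. That scale uses library size alone, under which the median fitted difference of all genes was itself -0.10. With TMM the fitted difference of Nr1d2 was -0.11 ± 0.10 (edgeR adjusted p = 0.493). No test compared Rora with the other members.

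**Figure D5:**
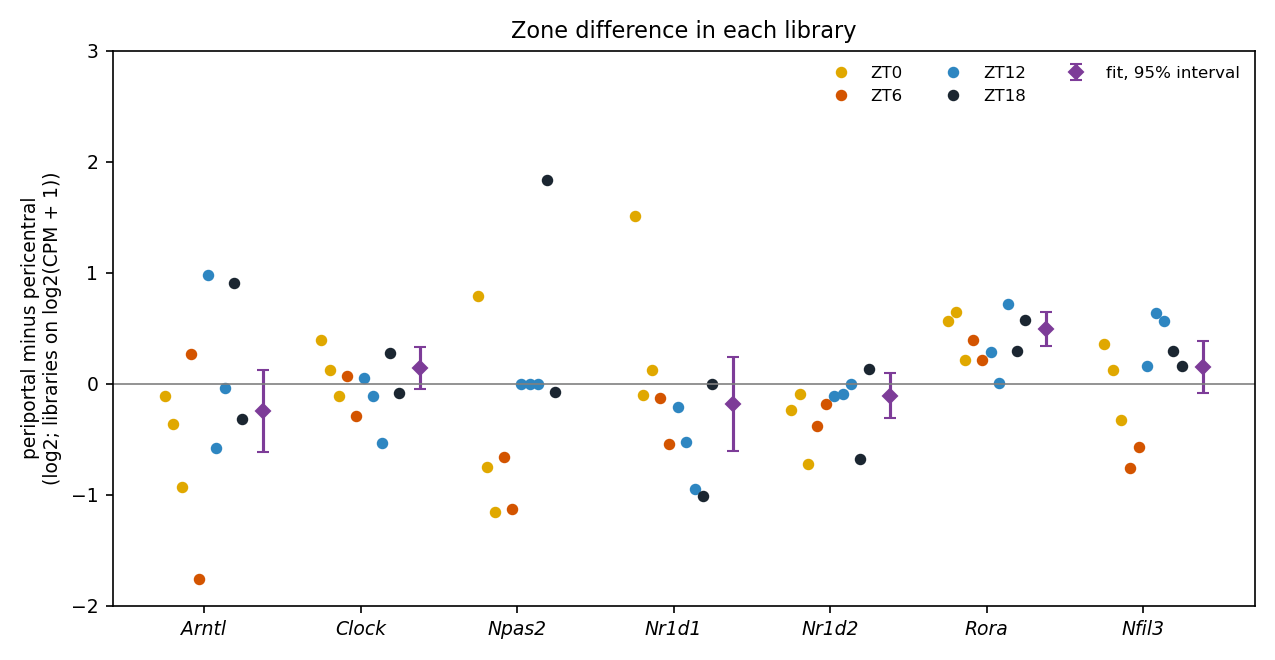
Zone difference of each member (y axis, log2, periportal minus pericentral, 0 marked). Points are the 10 libraries on the log2(CPM + 1) scale, coloured by time, and diamonds are fitted values with 95% intervals. All 10 points of Rora lie above 0, and the interval of each other tested member includes 0.

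A rhythm that differed between the zones was tested with the interaction of zone with the 24-h wave, and 0 of 6 members were called by edgeR, against 0.056% of 8925 genes (5 genes). The lowest adjusted p was 0.831 (Nfil3). No member had an unadjusted p under 0.05, 549 genes did, and DESeq2 called no member either. The amplitude of the zone difference in Arntl was 0.48, set beside 2.43 for its wave in all cells, and that in Nr1d1 was 0.57 beside 3.37.

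The other genes of the pathway were taken from lists by role. Among E-box repressors driven by ARNTL and CLOCK, 5 of 7 tested had a 24-h rhythm (Per1, Per3, Cry1, Cry2 and Ciart), with a median amplitude of 1.10 over the 7. For this and the next lists the shares over all genes are 5.14% with a rhythm call and 24.9% with a zone call. Per3 peaked at ZT11.1 (amplitude 1.87, adjusted p = 3.8e-05), Ciart at ZT10.5 (2.71, adjusted p = 3.2e-04) and Per1 at ZT10.3 (1.42, adjusted p = 0.0018). Cry1, itself a gene with ROREs, peaked at ZT20.1 (1.10, adjusted p = 0.0478), near Arntl. All 3 D-box activators were rhythmic. Dbp peaked at ZT9.46 (3.24, adjusted p = 3.8e-05), Tef at ZT10.9 (1.39, adjusted p = 3.8e-05) and Hlf at ZT12.6 (0.46, adjusted p = 0.027), against ZT21.9 for Nfil3.

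REV-ERB proteins recruit corepressors and ROR proteins coactivators. Of 6 corepressor genes, such as Ncor1 and Hdac3, none had a rhythm call by edgeR (median amplitude 0.19). The lowest unadjusted p for a rhythm among them was 0.224 (Gps2). Of 7 coactivator genes, Ppargc1a, which encodes PGC-1α, was called, with a peak at ZT10.1 and an amplitude of 0.69 (adjusted p = 0.0083). By zone 2 of the 7 coactivator genes were called, against 24.9% of all genes, with a median difference of 0.02 (log2) over the 7. Ppargc1a was 1.73 ± 0.16 higher periportally on the log2 scale (adjusted p = 9.6e-11), and Ppargc1b 0.75 ± 0.20 higher (adjusted p = 0.0037), on the same side as Rora. Of the 6 corepressor genes 1 had a zone call, Tbl1xr1, which was higher pericentrally. Of 8 kinase, ligase and protease genes of the clock, Usp2 was called (peak ZT12.2, amplitude 1.97, adjusted p = 5.5e-05).

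Among 13 tested genes named as REV-ERB or ROR targets in liver, 6 had a rhythm call (median amplitude 0.88), against 5.14% of all genes. Elovl3, a fatty acid elongase, and Insig2, which restrains lipid synthesis, were lower at ZT12 than at ZT0 by -3.85 ± 0.43 (adjusted p = 2.1e-04) and -1.85 ± 0.24 (adjusted p = 6.8e-04). Their peaks were at ZT23.7 and ZT23.8, on the side of the day of Arntl and Npas2. Cyp7a1, the rate-limiting enzyme of bile acid synthesis, and Alas1, that of haem synthesis, peaked at ZT13.3 (amplitude 1.02, adjusted p = 0.043) and ZT13.0 (1.14, adjusted p = 0.0043). Pck1, of gluconeogenesis, and Plin2, a lipid droplet protein, peaked at ZT10.2 (0.88, adjusted p = 0.0092) and ZT1.41 (0.57, adjusted p = 0.023). The calls in this list thus spread over the day. By zone, 11 of the 13 were called, 4 higher periportally and 7 higher pericentrally, against 24.9% of all genes (12.2% and 12.7%). They included Cyp7a1 (-3.68 ± 0.16) and Elovl3 (-2.12 ± 0.14) on the pericentral side, opposite to Rora.

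Genes with the most similar course over the 10 libraries were found by Pearson's r of log2(CPM + 1) among 6311 genes that averaged 10 CPM or more. The closest to Arntl were Chka (r = 0.962), Lgalsl and Pnrc1, and the most opposed was Dbp (r = -0.974), followed by Pcsk4 and Adora1. Nr1d2 was closest to Tef (r = 0.981), Acot12 and Per3. Nr1d1 was closest to Mrps26 (r = 0.946), Gtpbp2 and Fbxo21, and most opposed by Mal2 (r = -0.953), Ola1 and Srsf1. For Clock the leading genes were Clpx (r = 0.936), Slc30a10 and Lgalsl, and for Nfil3 Pde9a (r = 0.970), Zfp36l1 and Tjp3. Rora was closest to Shmt1 (r = 0.917), Tirap and Prr14. Among the members, Arntl and Clock had r = 0.900, Arntl and Nr1d2 r = -0.930, Npas2 and Nr1d2 r = -0.944, and Nr1d1 and Nr1d2 r = 0.589. These values describe 10 libraries that share their times, depths and composition, and they carry no test.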

How the data were processed

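The deposited files hold UMI counts per gene and cell from the authors, made with Cell Ranger per the submitters' processing notes, which name the builds mm10 and hg19 without saying how each was used. Versions and cell filters are not given in the sources used here. The members and gene lists were chosen with earlier results of these data known. Samples were grouped by the titles, and every cell was kept, since all had over 1000 UMIs and under 35% mitochondrial UMIs. Doublets were not removed. Cells are numbered and carry no barcodes in the files, so shared barcodes were not counted; no cell's counts were identical to another's.

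Sums of counts per library went into edgeR's quasi-likelihood test (version 4.0.16, TMM scaling, R 4.3.3) for genes averaging 3 CPM or more. Adjusted p-values are Benjamini-Hochberg over all genes, with a threshold of 0.05. The rhythm test has 2 degrees of freedom for a 24-h cosine and sine. Zones are the outer 2 of 3 equal parts of the cells ordered by 8 periportal minus 8 pericentral landmarks (Cyp2f2, Ass1, Asl, Hal, Ctsc, Hsd17b13, Pigr, Ftcd; Cyp2e1, Oat, Gulo, Mgst1, Aldh1a1, Lect2, Cyp1a2, Rgn), with the library as a block. Scores from alternate landmarks correlated with r from 0.683 to 0.847 across cells. The tests were checked on simulated counts. The simulated time counts gave all genes the same spread and drew libraries independently. They do not cover the joint deviation of ZT0 and ZT12 libraries given below. DESeq2 1.42.0, other scalings and filters, a replicate block and leaving out libraries were alternatives. The permutation test of shares is exact, on the between-time sum of squares, which makes it two-sided.

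Libraries with the same letter at ZT0 and ZT12 deviated together from their group means (r = 0.239, 0.428 and 0.485 for A, B and C), and these pairs also share their index number; the numbers therefore pair ZT0 with ZT12, and other pairs with the same letter had r from -0.043 to 0.110. No 2 libraries of a group were copies, since they differed beyond sampling noise.

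All 7 members are described, and 1 further gene is not reported here; for each tested member the 3 most similar genes are named, and for Arntl and Nr1d1 the 3 most opposed. Promoter windows are from RefSeq (GRCm38.p6) and gene positions from GENCODE M21 (GRCm38), the build of mm10.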

Additional observations from a re-analysis of the deposited data

Results flagged for a closer look

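The zone difference of Nr1d1 in library ZT0A was 1.51 on the log2(CPM + 1) scale, periportal over pericentral, and stood farther from the other 9 libraries than their spread allows at the 95% level. It rests on 4 periportal and 0 pericentral UMIs. The other libraries lay between -1.02 and 0.12. Among 10 values a gap of this size is flagged by chance in about 1 of 20 groups.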

How the results depend on the processing

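Of 1096 alternatives for single members, 1058 kept the direction and the side of the threshold, 30 lost a call, 8 gained one and 0 reversed direction; the left-out libraries and blocks that changed a call of a contrast or rhythm stand beside it. Nr1d1 at ZT12 against ZT0 was called in 8 alternatives (adjusted p from 0.0094 to 0.0479, DESeq2 the lowest). Clock at ZT18 against ZT12 was also lost with scaling to library size (edgeR adjusted p = 0.0764), and in the fit of 1 mean per time Clock lost its call in 7 alternatives. With a minimum mean of 20 CPM, 283 genes were rhythmic and 380 differed among times, against 458 and 586, and members called fell to 3 for rhythm, 3 for any time, 1 for ZT18 against ZT6 and 5 between neighbouring times, since Arntl and Nr1d1 were then not tested. DESeq2 called 792 rhythmic genes. The replicate block called 749 rhythmic genes and 989 differing among times, and changed no other member's call than those given. Without both ZT18 libraries 231 genes were called in each of these tests. With 1 library left out, 228 to 465 genes were rhythmic and 245 to 669 differed among times; where a time is left with 1 library, it is assumed to vary like the others. Zone with the time as a block in place of the library called 1104 genes, against 2225. The zone call of Rora held in each of its 20 alternatives (0.39 to 0.61). Depth limits Npas2, and Arntl and Nr1d1 at their low times, to counts of a few UMIs a library.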
